A study of Sus scrofa with 8 samples.

Results

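The genes described here encode the proteins of the cytosolic ribosome in pig skeletal muscle. They were chosen by symbol, taking each gene of the deposited table named RPL or RPS with a number, RPLP0 to RPLP2 or RPSA, leaving out the S6 kinases, and keeping those with a mean FPKM (fragment counts normalised for transcript length and library depth) of at least 1 over the 8 libraries. The symbols matched 68 of 23235 genes, and all 68 passed the minimum, as did 9821 genes in all. Of the 68, 38 were assigned by symbol to the large 60S subunit and 29 to the small 40S subunit. RPS19BP1 matches by its symbol but encodes a protein that binds RPS19 and is no part of the ribosome. A further 5 are paralogues, second genes that resemble a standard ribosomal protein gene (RPL3L, RPL7L1, RPL26L1, RPL36AL and RPS27L), which leaves 62 canonical members, 34 of the large and 28 of the small subunit.

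Weaned Duroc x Landrace x Yorkshire piglets, 28 days old, got melatonin or plain saline into the stomach each day for 23 days, after 5 days to settle. The melatonin dose was 5 mg per kg of body weight in sterile saline, both groups ate one basal diet, and 6 of the 12 piglets were randomised to each group. Poly(A) RNA of the longissimus dorsi, the long muscle of the back, was sequenced in 4 control (saline) and 4 melatonin libraries, with total counts from 53471667 to 60629098. The labels give a group and a replicate number only, so p-values measure the spread between these libraries. Whether each library is 1 animal is not stated.

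Each cytosolic ribosome is built from ribosomal RNA and one copy of most ribosomal proteins, so cells make these proteins in near-equal amounts. Their messages carry a pyrimidine tract at the start, through which growth signalling by mTOR switches their translation on and off together. That control acts mainly on translation, which RNA levels do not show. Skeletal muscle fibres also make RPL3L, a muscle form of RPL3, the protein close to the site where peptide bonds form.

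The libraries were checked for the labelled tissue and for other cells. The muscle fibre list (12 of 13 genes in the table) summed to between 126838 and 143776 FPKM in controls and between 105945 and 133780 after melatonin. Melatonin replicates 1 and 3 stood apart in fibroblast and matrix markers. Their summed level of fibroblast and matrix markers (12 of 14 genes in the table, all past the minimum) was 12067 and 3717 FPKM. The same sum lay between 862 and 1565 FPKM in the control libraries and was 1053 and 1105 FPKM in the remaining melatonin libraries. The collagen gene COL1A1 measured 3457 and 913 FPKM there, and 110 and 151 FPKM in melatonin replicates 2 and 4. Group means of COL1A1, COL1A2 and SPARC were 125, 118 and 382 FPKM in controls. After melatonin they were 1158, 1173 and 1214 FPKM, so these genes made up most of the mean melatonin sum. Of the 12 genes, 11 were higher after melatonin, but not to a like degree. Means differed less for COL3A1 (281 and 403), DPT (7.81 and 10.3) and LUM (17.4 and 20.8), and POSTN was lower (5.10 and 4.80). Adipocyte markers (8 of 8 genes) were also high in replicates 1 and 3 of the melatonin group, at 314 and 319 FPKM. Controls ranged from 68.9 to 229 FPKM, and melatonin replicates 2 and 4 had 146 and 62.9. Macrophage markers (10 of 11) summed to 58.0 and 75.4 FPKM there, to 51.0 and 18.2 in replicates 2 and 4, and to 20.6 to 52.0 in controls. Endothelial sums (8 of 9 genes) lay between 48.8 and 77.9 FPKM in every library and lymphocyte sums (8 of 8) between 1.54 and 5.38. Erythroid sums (3 of 6) lay between 37.8 and 165 FPKM and satellite cell sums (6 of 6) between 20.3 and 38.04. The adipocyte hormone LEP, the macrophage receptor MARCO, the lymphocyte genes IL7R and MS4A1 and the red cell gene SLC4A1 lay under a mean of 0.1 FPKM. In bulk muscle, fewer cells of a type and less RNA per cell cannot be told apart.

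Levels of the members spanned a wide range although the proteins are needed in near-equal numbers. The median member had a mean of 143 FPKM, against 4.20 over all 9821 genes, and 41 of the 68 reached 100 FPKM. Medians of the subunits were 143 FPKM (60S) and 153 FPKM (40S). RPLP1, one of the acidic proteins of the stalk that recruits elongation factors, led with 1950 ± 191 FPKM in controls and 2058 ± 287 after melatonin (SD, n = 4). It alone held 13.9% of the members' summed FPKM, and the 5 highest members held 31.8%. The stalk base RPLP0 followed at 813 ± 114 and 835 ± 73.7 FPKM. Then came RPL10, which is loaded late in maturation of the large subunit, at 642 ± 42.0 and 657 ± 105 FPKM. RPS2, at the entrance where the message is threaded in, led the small subunit at 628 ± 111 and 664 ± 107 FPKM, ahead of RPS7 and RPS3A at means of 458 and 383 FPKM. RPL10 and RPS2 differed by less than their spread, and RPLP1 exceeded all other members in each of the 8 libraries.

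At the low end lay the paralogues RPL7L1 (4.88 FPKM), RPS27L (5.74), a p53 target, and RPL26L1 (7.35), with RPS19BP1 lowest of all at 4.57. These 4 were the members under 10 FPKM. Canonical members reached down to RPL37 at 11.5 FPKM in the large subunit and RPS20 at 22.3 in the small one. Within the small subunit RPS29 (37.1) was the next lowest canonical member. From the highest to the lowest canonical member the range was 174-fold in FPKM and 63.5-fold in counts.

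**Figure D1:**
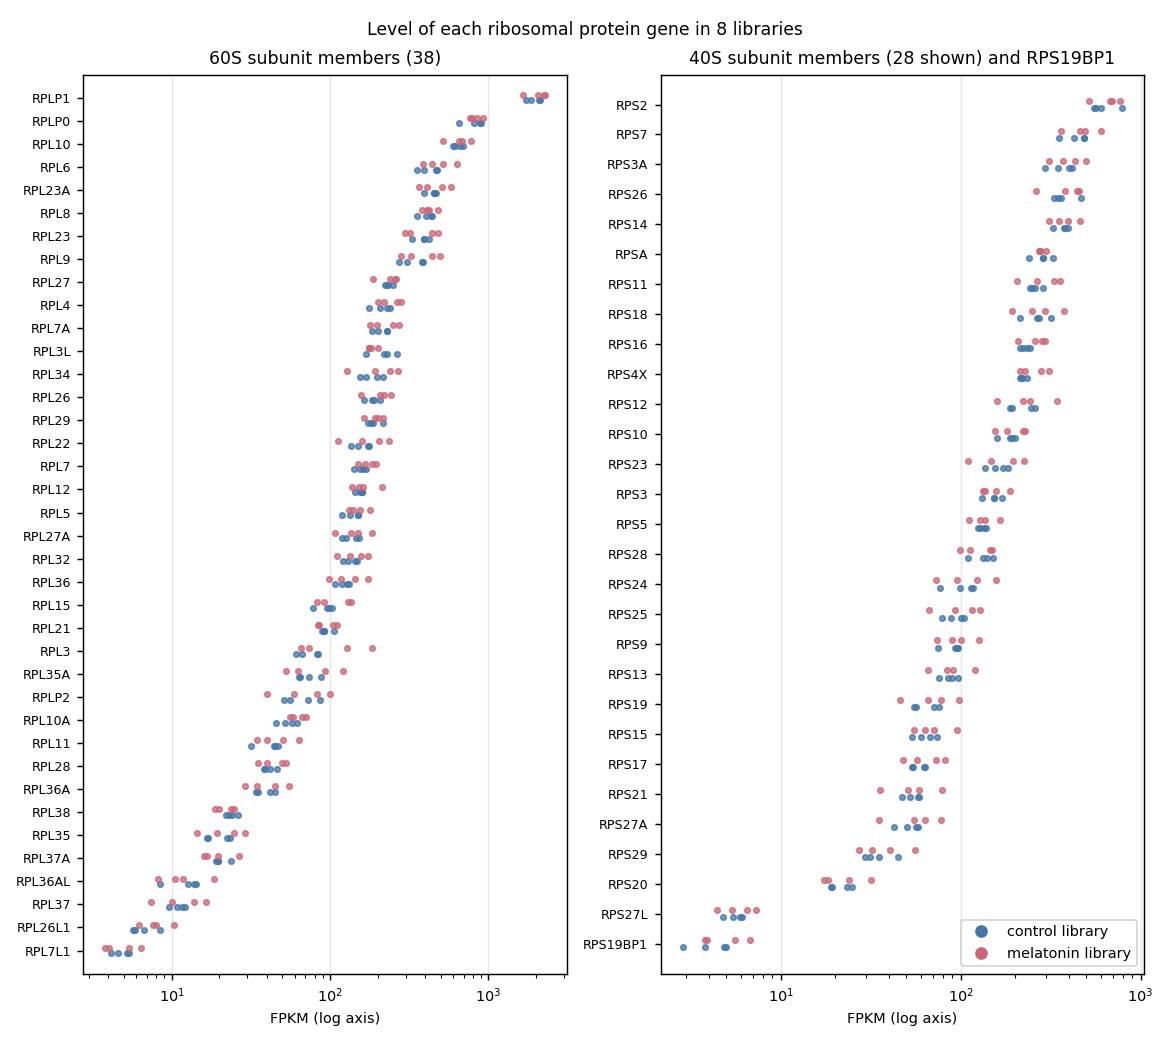
FPKM (log axis) of the members, 1 of them left out, in the 4 control (blue) and 4 melatonin (red) libraries, ordered by mean in a panel for the 60S subunit and one for the 40S subunit with RPS19BP1. RPLP1 exceeds all other members in every library, and the points of both groups overlap in every row.

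Part of this range moved with the length behind each FPKM value. Dividing counts by FPKM and by the library total gives that length, provided the total count was the depth the authors used. Its median over the members was 1380 bases. RPS20, which helps form the head of the small subunit, drew 9186 counts per library, but its FPKM rested on a length of 7336 bases, close to its gene span of 7747 bases. RPL37 and RPL35 rested on lengths of 4331 and 4995 bases, against spans of 6407 and 8957 bases. RPS28, in contrast, had 2483 counts and a length of 339 bases, and its FPKM of 130 was higher. The 22 members with a length over 2000 bases had a median of 64.7 FPKM and 12323 counts. The other 46 had a median of 196 FPKM and 11198 counts. As the length is computed from count and FPKM, a lower FPKM at a like count follows by arithmetic in the longer group. Orders of the members in FPKM and in counts therefore differ, and neither gives the number of messages.

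**Figure D2:**
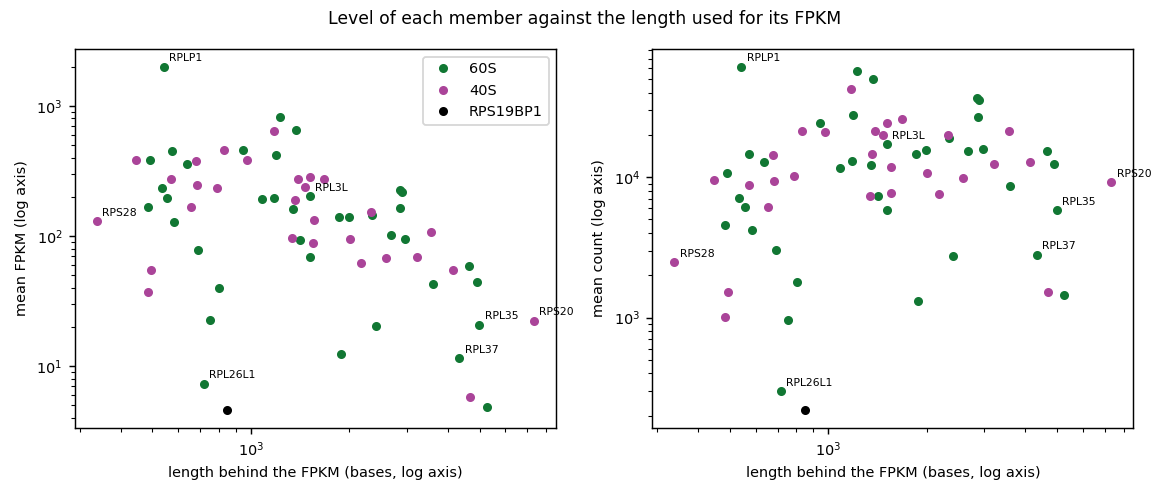
Mean FPKM (left) and mean count (right) of each member over 8 libraries against the length that underlies its FPKM, all on log axes, coloured by subunit. RPS20 and RPL35 lie far to the right with 22.3 and 20.9 FPKM but 9186 and 5844 counts.

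The members sit on 17 chromosomes (build Sscrofa11.1), 3 of them on X: RPL10, RPS4X and RPL36A. The closest 2 pairs of neighbours both involve a paralogue. RPS2 (chromosome 3, 40001326 to 40002867) is followed after 5000 bases by RPL3L (40007868 to 40016699) on the same strand, and RPS29 and RPL36AL lie 15008 bases apart on chromosome 1. Within the gene span of 21 members lies a small nucleolar RNA of the same strand, a class that guides chemical modification of ribosomal RNA and is cut from introns. RPL4 spans copies of SNORD16 and SNORD18, each with fewer than 5 counts per library on average against 36547 for their host. On the opposite strand 14 members overlap another gene. The whole count of that gene, as a percentage of the member's, was largest for CAND2 at RPL32 (46.6%). ACY1 at RPL29 (26.7%) and VPS52 at RPS18 (19.2%) came next. Reads inside the overlaps were not counted. Strand use in counting is not given in the sources used here, so reads in these overlaps cannot be assigned with certainty. Ribosomal protein genes also have many near-identical processed copies, among which reads can be shared.

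The question of the study, what oral melatonin does to the muscle transcriptome, was put to the members with edgeR's quasi-likelihood test over all 9821 genes. Levels of the ribosomal protein genes were not shown to differ between the groups. None of the 68 passed at an adjusted p under 0.05, as for all genes (0.0%), and the smallest adjusted p of a member was 0.496. At an unadjusted p under 0.05 there were 0 members as well, against 10.5% of all genes in edgeR (6.67% higher, 3.84% lower) and 12.3% in DESeq2. DESeq2 called 0.662% of all genes and 0 members. The median log2 fold change of melatonin over control was 0.01 for the members and 0.00 for all genes, with 35 members above and 33 below 0, where 50.2% of all genes lay below. By subunit, 19 of 38 members of the 60S and 14 of 29 of the 40S lay below 0, with medians of 0.00 and 0.01. The log2 fold changes of 55 of the 68 were smaller than 0.1 in size. This even split held with median-of-ratios scaling, upper quartile scaling and DESeq2 (34 of 68 below 0 in each) and with the replicate block (33). It did not hold under several other settings. Leaving out 1 library moved the number below 0 to between 18 (without melatonin replicate 4, median 0.05) and 52 (without melatonin replicate 1, median -0.05). It was 46 without melatonin replicates 1 and 3 together (median -0.05), 6 with no scaling factor (median 0.11) and 17 of 66 at a minimum mean FPKM of 5 (median 0.05).

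These data bound the size of any difference more tightly than a missed threshold does. The 95% interval of the fold change lay within 1.5-fold either way for 64 of the 68 members, against 40.4% of all genes, and within 2-fold for 68 of 68, against 79.8%. The 4 exceptions at 1.5-fold were RPL3, RPL3L, RPL26L1 and RPS19BP1. Standard errors of the members had a median of 0.14 on the log2 scale, against 0.20 over all genes.

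**Figure D3:**
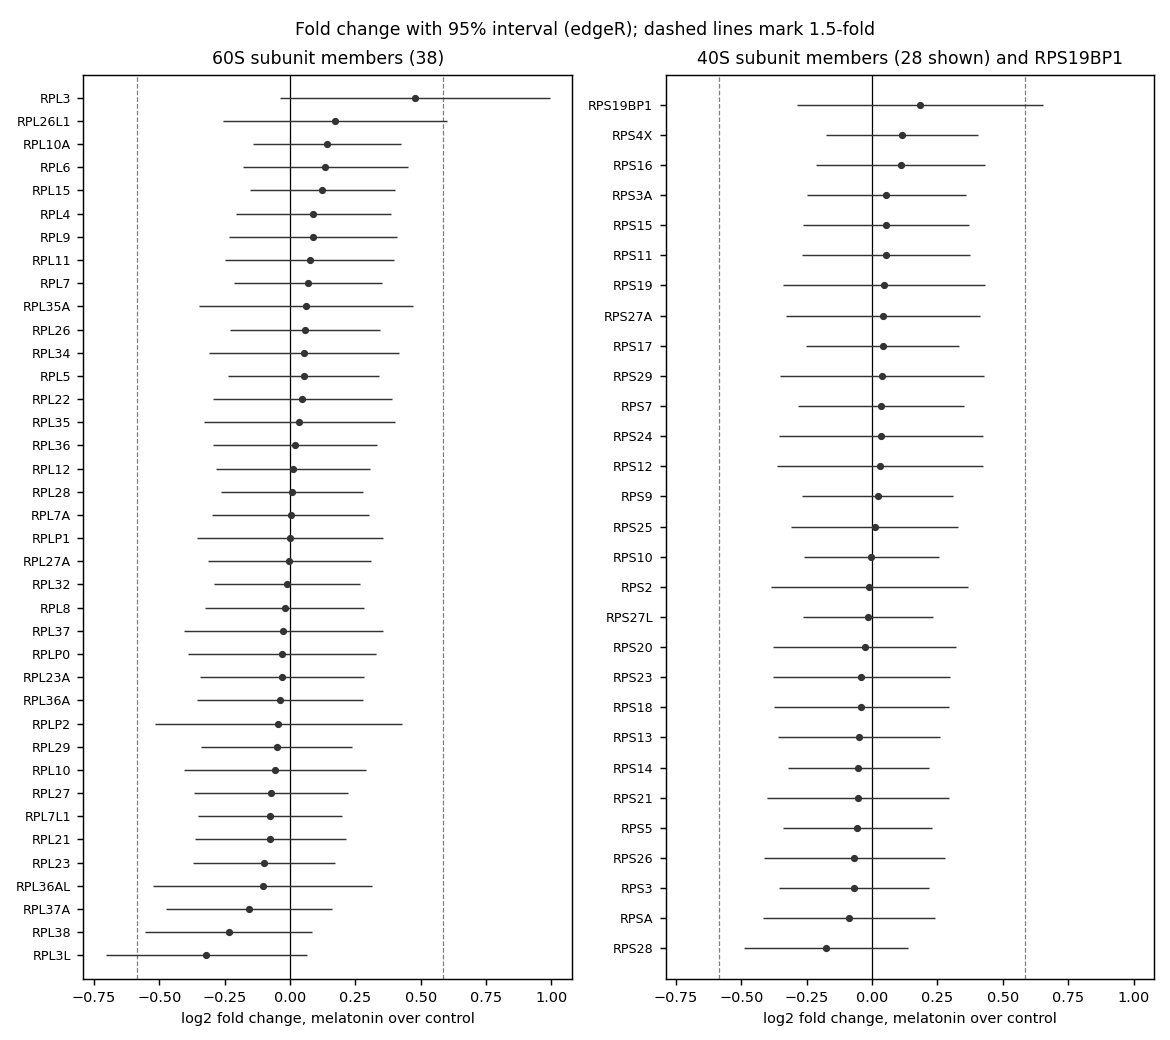
Log2 fold change (melatonin over control, edgeR) of the members, 1 of them left out, with the 95% interval of each, in order of size within each panel (RPS19BP1 is drawn beside the 40S subunit), with dashed lines at 1.5-fold. Only RPL3, RPL3L, RPL26L1 and RPS19BP1 reach past a dashed line, and every interval includes 0.

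RPLP1 had a log2 fold change of -0.00 ± 0.16 (SE), with an interval from -0.36 to 0.35. Its stalk partner RPLP2 varied more, with 72.7, 51.4, 87.0 and 55.9 FPKM in control replicates 1 to 4 and 99.5, 58.9, 83.0 and 40.1 after melatonin. The highest and the lowest value of RPLP2 were thus both in melatonin libraries. RPL5 and RPL11, which with 5S ribosomal RNA can bind MDM2 and stabilise p53 when ribosome assembly stalls, measured 138 ± 15.0 and 152 ± 20.6 FPKM, and 41.9 ± 7.01 and 47.3 ± 12.6 FPKM. Their log2 fold changes were 0.05 ± 0.13 and 0.08 ± 0.14. RPS19, mutated in Diamond-Blackfan anaemia, measured 64.7 ± 10.5 and 72.1 ± 21.5 FPKM. RPS3, which also takes part in DNA repair, measured 152 ± 15.7 and 154 ± 25.0 FPKM. RPS27A, made as a fusion with ubiquitin, measured 52.1 ± 6.98 and 57.8 ± 17.7 FPKM. RPSA, a protein of the small subunit also known as a laminin receptor, had 286, 241, 326 and 288 FPKM in controls and 299, 272, 277 and 277 after melatonin, so that all 4 melatonin values lay inside the range of controls. Its log2 fold change was -0.09 ± 0.15.

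RPL38, which has been tied to translation of Hox messages in mouse embryos, was the only member whose groups did not overlap after TMM scaling (trimmed mean of M values, which evens out library makeup). Over all genes 4.27% were so separated, 2.02% with melatonin lower and 2.25% with melatonin higher. It had 18.0, 23.4, 17.3 and 16.4 CPM (counts scaled to a common library size) in control replicates 1 to 4 and 16.1, 16.2, 15.2 and 16.3 after melatonin. The gap between the groups was small, and control replicate 2 was highest by far. For RPL38 edgeR gave -0.23 ± 0.14 on the log2 scale, at an adjusted p of 0.561. Without control replicate 2 the value was -0.11, and leaving out any other single library gave -0.29 to -0.21. In FPKM the groups overlapped, at 23.9 ± 1.81 and 21.8 ± 3.01. RPS28 (-0.18 ± 0.14) and RPL37A (-0.16 ± 0.14) came next among lower values, each with overlapping groups. Among higher values, RPL10A had 0.14 ± 0.13, RPL6 0.14 ± 0.14 and RPL15 0.12 ± 0.12, again with overlap.

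RPL3 and its muscle paralogue RPL3L gave the largest values of the members, in opposite directions. RPL3 (ENSSSCG00000040494, chromosome 5, 8922665 to 8929767) had 84.0, 60.7, 82.3 and 66.7 FPKM in control replicates 1 to 4. After melatonin it had 183, 74.2, 127.5 and 65.2 FPKM. Melatonin replicates 1 and 3 were above all controls, and replicates 2 and 4 lay among them. Its log2 fold change was 0.48 ± 0.23 with an interval from -0.04 to 0.99 (edgeR adjusted p = 0.496, unadjusted p = 0.0666). RPL3L (ENSSSCG00000032657) had 230, 168, 266 and 220 FPKM in controls and 180.5, 201, 177 and 176 after melatonin. In FPKM the melatonin values lay inside the range of controls because of control replicate 2. Its log2 fold change was -0.32 ± 0.17 with an interval from -0.70 to 0.06 (edgeR adjusted p = 0.526, unadjusted p = 0.0921). After TMM scaling, RPL3L was lowest in melatonin replicates 1 and 3, at -0.55 and -0.58 on the log2 scale against the control mean, and lay at -0.05 and -0.15 in replicates 2 and 4. RPS2, the neighbour of RPL3L, had a log2 fold change of -0.01 ± 0.17.

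The share of RPL3L in the summed FPKM of both genes needs no scaling between libraries. RPL3L made up 73.3, 73.5, 76.3 and 76.7% of the pair in control replicates 1 to 4 (74.96 ± 1.83%, SD, n = 4). After melatonin its share was 49.6, 73.1, 58.1 and 73.0% (63.5 ± 11.6%). Replicates 1 and 3 were far below the controls, while replicates 2 and 4 lay just below the lowest control. The share was computed after the values of both genes had been seen, so no test was made of it. Both libraries with a low share are those with 12067 and 3717 FPKM of fibroblast and matrix markers, where the muscle fibre list was also lowest, at 107975 and 105945 FPKM. The part of connective tissue and of muscle fibre content in the shift was not tested. RPL3 and RPL3L resemble each other, and how the authors' counting treated reads that fit both is not given in the sources used here. Without melatonin replicates 1 and 3 the difference in the mean share shrank from -11.5 to -1.94 percentage points, the log2 fold change of RPL3 was 0.04 and that of RPL3L -0.11. Leaving out 1 library at a time gave RPL3 values from 0.22 (without melatonin replicate 1) to 0.61 (without melatonin replicate 4), and RPL3L values from -0.42 (without melatonin replicate 2) to -0.24 (without control replicate 3).

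**Figure D4:**
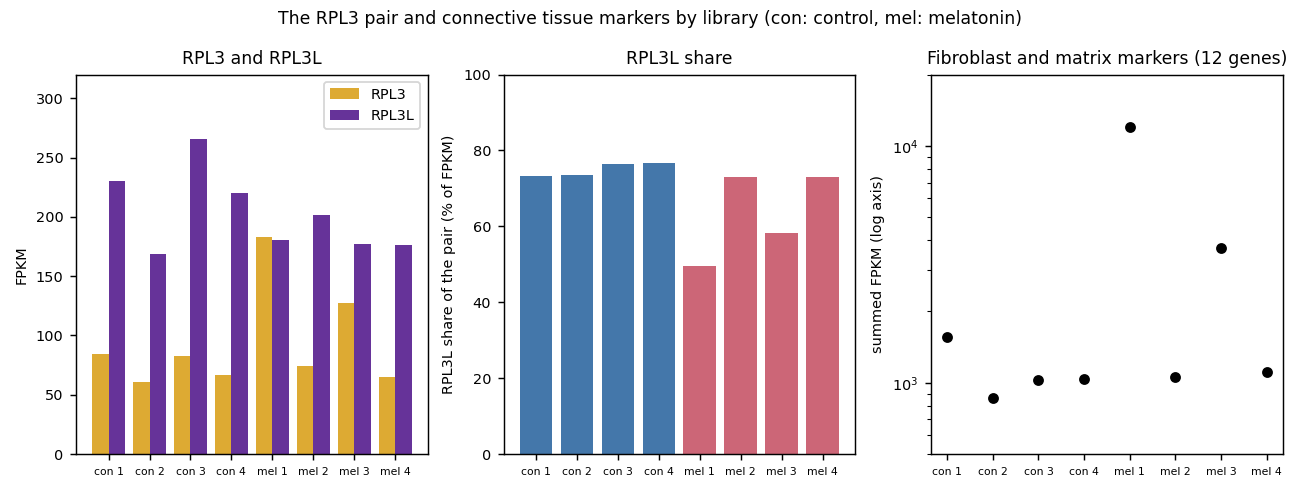
Left, FPKM of RPL3 and RPL3L in each library. Middle, the share of RPL3L in the FPKM of the pair (%). Right, summed FPKM of 12 fibroblast and matrix markers (log axis). Melatonin replicates 1 and 3 have the lowest RPL3L shares (49.6 and 58.1%) and the highest marker sums (12067 and 3717 FPKM).

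Other paralogue pairs were steadier. RPL36AL, an intronless second gene for the RPL36A protein, made up 23.9 ± 2.96% of its pair's FPKM in controls and 22.9 ± 1.77% after melatonin. RPL26L1 made up 3.47 ± 0.521% and 3.76 ± 0.608% of its pair, and RPL7L1, whose product acts in ribosome assembly, 2.99 ± 0.181% and 2.73 ± 0.463%. Values of both groups overlapped in each of these 3 pairs. RPS27L had 5.58 ± 0.593 and 5.91 ± 1.27 FPKM, and its parent RPS27 is not analysed here. RPL26L1 (0.17 ± 0.19) and RPS19BP1 (0.18 ± 0.21) had the largest log2 fold changes above 0 after RPL3, both with overlapping groups and with 297 and 218 counts per library.

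Summed levels of the members differed more from library to library than between the groups. Their summed FPKM was 14777, 12211, 15125 and 13622 in control replicates 1 to 4 and 17646, 14212, 15910 and 11641 after melatonin. The group means were 13934 ± 1316 and 14852 ± 2559 FPKM. As a share of all counts the members took 1.79, 1.45, 1.81 and 1.62% in controls and 2.16, 1.67, 1.90 and 1.41% after melatonin. Melatonin replicate 1 was highest and melatonin replicate 4 lowest, so that the melatonin libraries enclosed the controls. Of the 68 members, 55 had their highest FPKM in melatonin replicate 1, and 47 had their lowest in melatonin replicate 4. The same counts were not made over all genes, so they are not shown to be particular to the members. TMM factors, set over all genes tested, were also high in melatonin replicate 1 (1.18) and low in melatonin replicate 4 (0.87). They were 1.19 in melatonin replicate 3 and 0.85 in control replicate 2.

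The order of the libraries in member share moved with library makeup. The 10 genes with most counts took 31.0 and 30.0% of all counts in melatonin replicates 1 and 3, but 41.5 and 40.6% in control replicate 2 and melatonin replicate 4, the libraries with the lowest member shares. TMM scaling, which allows for this, narrowed the sums to 15975 to 18063 CPM in controls and 16241 to 18479 after melatonin. The median member then lay at 0.06, -0.01, 0.06 and -0.13 on the log2 scale against the control mean in control replicates 1 to 4, and at 0.19, 0.05, -0.04 and -0.12 after melatonin. Melatonin replicate 1 was highest for 38 members, and the lowest value was in melatonin replicate 4 for 24, in control replicate 4 for 23 and in melatonin replicate 3 for 14. Nor were these counts made over all genes.

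**Figure D5:**
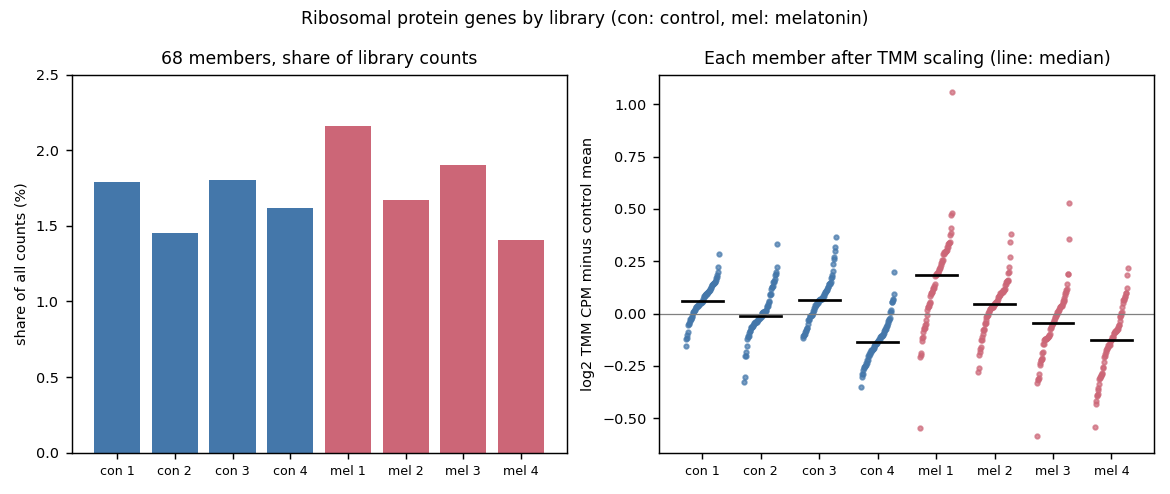
Left, counts of the 68 members as a share of all counts (%) in each library. Right, each member's log2 TMM-scaled CPM minus its control mean, with the median as a line. Shares run from 1.41 to 2.16% in melatonin libraries, and after scaling medians lie between -0.13 and 0.19.

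Within a library the members kept their proportions. Each member's count was set against the geometric mean of the 62 canonical members, which removes depth and library makeup. The SD of this log2 ratio over the 8 libraries was 0.12 for the median member and under 0.2 for 60 of 68. RPL32, RPL27A and RPL7A were steadiest, with SDs of 0.03, 0.04 and 0.04. RPL3 (0.35) and RPL3L (0.30) varied most, followed by RPS19BP1 (0.25), RPL26L1 (0.23) and RPLP2 (0.23). The ratio of summed 60S to summed 40S FPKM was 1.58 ± 0.0433 in controls and 1.58 ± 0.0801 after melatonin, and ranged from 1.47 in melatonin replicate 1 to 1.66 in melatonin replicate 4.

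Of the ribosomal proteins that the symbol rule missed, 11 could be named otherwise. Among them FAU and RACK1 encode ribosomal proteins under other symbols, though the description deposited for FAU is that of another gene, so its identity is uncertain. The genes RPS6, RPL13, RPL13A, RPL14, RPL17, RPL24, RPL30 and RPS15A stand in the table under an Ensembl ID only. RPS6, the S6 kinase substrate, had a mean of 131 FPKM and a log2 fold change of 0.02 ± 0.14, and RPL13A, at 733 FPKM, had 0.02 ± 0.15. All 11 lay between -0.12 and 0.16, with a median of -0.02. In edgeR 0 of them passed, and 0 were at an unadjusted p under 0.05.

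Genes that act around the ribosome were read from lists, and in each of them edgeR and DESeq2 both called 0 genes. Over all genes edgeR called 0.0% and DESeq2 0.662%, and 10.5% were at an unadjusted p under 0.05 in edgeR. The counts at that level below are read against this share. The translation list held translation factors and other genes known for the same kind of regulated message (15 of 18 in the table). Of these 15, 11 lay above 0, with a median of 0.08, and 1 was at an unadjusted p under 0.05. That gene, PABPC1, the poly(A)-binding protein, had 31.8 ± 1.39 FPKM in controls and 50.9 ± 18.9 after melatonin, or 0.55 ± 0.17 on the log2 scale (adjusted p = 0.440 in edgeR). EIF3F, an initiation factor subunit, came next at -0.25 ± 0.13. The 48 ribosome biogenesis genes past the minimum were evenly split, 24 above and 24 below 0 (median 0.00). At an unadjusted p under 0.05 were IMP3, which joins the early processing of small subunit RNA, at -0.47 ± 0.18, and WDR75 at 0.37 ± 0.15. RNA polymerase I, which makes the large ribosomal RNAs, had 8 of 15 genes above 0 (median 0.05), with 0 at an unadjusted p under 0.05 and values of 0.29 ± 0.18 for TAF1B and 0.23 ± 0.15 for its terminator TTF1. Of 24 regulators, 12 lay above and 12 below 0 (median 0.00), and 2 were at an unadjusted p under 0.05. Of these, TSC1, a brake on mTOR, had 4.60 ± 0.515 and 6.77 ± 1.83 FPKM (0.47 ± 0.18), and the transcription factor SP1 had 2.64 ± 0.191 and 3.73 ± 0.461 (0.42 ± 0.17). With no scaling factor fewer genes lay below 0 in each of these lists, and also over all genes (37.6%, against 50.2% with TMM). The counts were 2 of 15 in the translation list, 13 of 48 biogenesis genes, 3 of 15 polymerase genes and 6 of 24 regulators. Without melatonin replicates 1 and 3 the medians were 0.16, 0.02, 0.09 and 0.05, beside -0.02 over all genes.

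Mitochondrial ribosomal proteins build the separate ribosome of the mitochondrion and are encoded by other nuclear genes. Of 64 such genes, 56 lay below 0 with a median of -0.17, beside 33 of 68 and a median of 0.01 for the cytosolic members. Over all genes 50.2% lay below 0. With no scaling factor the count was 45 of 64 (median -0.09), beside 6 of 68 cytosolic members (median 0.11). Over all genes it was 37.6%. Without melatonin replicates 1 and 3 it was 49 of 64 (median -0.14), beside 46 of 68 cytosolic members (median -0.05). Over all genes it was 52.6%. The counts of both sets were thus closer in that setting than in the main fit. At an unadjusted p under 0.05, 7 mitochondrial genes were lower and 1 higher, led by MRPL24 (-0.52 ± 0.14) and MRPL37 (-0.85 ± 0.27). Over all genes 3.84% were lower and 6.67% higher at that level in edgeR. The difference between the cytosolic and the mitochondrial genes was not tested.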

How the data were processed

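Gene-level RNA-seq of 8 libraries was analysed from 1 deposited table. Per the file headers, the authors deposited a whole-number count and an FPKM value per gene and library, not pooled. Per the submitters' processing notes the build was Sscrofa11.1, and FastQC, StringTie and DESeq2 are listed with no purpose stated. No aligner or annotation is given in the sources used here. All 16 value columns were mapped to a library by title, with 0 left over. Symbols came from the table, and for genes listed by ID only from a table of gene names (128), NCBI numbers (110) or the description (3). Between the most alike libraries chi-square over its degrees of freedom was 64.4, so none was a duplicate.

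Counts of genes with a mean FPKM of at least 1 were tested, melatonin against control with no covariate, with TMM scaling and the legacy quasi-likelihood F test of edgeR 4.0.16 (R 4.3.3), adjusted by Benjamini-Hochberg at a threshold of 0.05. The SE is the log2 fold change divided by the root of F. DESeq2 1.42.0, limma 3.58.1 on log2(FPKM + 1) and log2(FPKM + 0.1), other scalings and filters, the replicate number as a block and libraries left out were alternatives. The test was tried on simulated counts. Python 3.11.15, pandas 2.3.3, NumPy 2.4.6 and Matplotlib 3.10.9 served for summaries and plots.

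The members and the gene lists were chosen with earlier results of these data known. So no p is given for a list. Named members are the 3 highest and 3 lowest of each subunit, the 4 with the smallest p and the 3 with the largest fold in each direction, paralogues with their parents, and a set fixed by role. From each pathway list the 2 genes with the smallest p are named. Other members named for length, overlap or steadiness (RPL35, RPL4, RPS18, RPL29, RPL32, RPL27A, RPL7A) were chosen after their values were seen. So were the fibroblast and matrix markers named singly. Values of some single genes are not reported here.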

Additional observations from a re-analysis of the deposited data

Results flagged for a closer look

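Control replicate 1 of RPL37A, a protein of the large subunit, stood apart from its group at 23.8 FPKM, against 19.2 to 19.7 in the other controls. Its gap to the next control exceeded Dixon's 95% critical value for 4 samples. Of 80 groups of 4 examined this was the only one, where chance gives about 1 in 20. The gap was seen in unscaled FPKM. After TMM scaling, RPL37A lay at 0.15, 0.13, -0.11 and -0.17 on the log2 scale against the control mean in control replicates 1 to 4. Control replicate 1 then lay close to control replicate 2.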

How the results depend on the processing

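No member passed the adjusted threshold under any of the 19 alternatives fitted across genes. DESeq2 called 65 genes over all and 0 members. Leaving out 1 library at a time gave 0 to 15 called genes (15 without melatonin replicate 4) and 0 to 2 members at an unadjusted p under 0.05. Those 2, RPL3 and RPL3L, came without melatonin replicate 2. RPL3 alone came without melatonin replicate 4, and RPS28 alone without control replicate 4. Same-numbered libraries deviated together with correlations of 0.19, 0.09, 0.15 and -0.04, so the numbers were not taken as pairs. With the replicate block 0 genes were called and 1 member, RPL3, was at an unadjusted p under 0.05 (0.0402). The median of the members lay between -0.05 and 0.11 in all settings, within 1 SD of its main value. Its sign changed with scaling, filter and single libraries. Of 68 members 33 lay below 0 with TMM and 34 with other scaling factors, but 6 with no scaling factor (median 0.11, all genes 0.09), 7 in limma on FPKM, 38 with no filter, 44 without control replicate 4, 52 without melatonin replicate 1 and 18 without melatonin replicate 4, and of 66 members 17 at a minimum mean FPKM of 5. Summed FPKM comes from the deposited values, so scaling, test or block could not change it. With libraries left out or another filter it kept its value within the spread. The difference in the RPL3L share went to -1.94 percentage points without melatonin replicates 1 and 3 together, a choice made after seeing the data. Of 606 values of the 32 named members under these alternatives, 7 moved by over 1 SD and 85 had another sign than in the main result, all of them in genes that passed no test. The effect of depth on the members was not tested, and each had 218 or more counts per library on average.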

Other observations

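Beside the named genes, 54 loci carry the deposited term for a structural part of the ribosome but have no symbol. Of these, 26 had a mean of at least 1 FPKM and 6 of at least 50, with 372 FPKM in the highest. Together they measured 7.42% of the members' summed FPKM. Whether they are genes in their own right or copies that share reads with the members was not tested.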
